A study of Mus musculus with 3 samples.

Results

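Oligodendrocyte-like cells from 3 mouse gliomas were compared by whether they held transcripts of a transgene. The transgene is read through WPRE, a regulatory element of woodchuck hepatitis virus that is often placed at the 3′ end of expression constructs and that has a row of its own in the deposited count tables. Cells counted as oligodendrocyte-like when the myelin genes Mog, Mag, Mobp, Mal, Ermn and Opalin together reached 10 unique molecular identifiers (UMIs, 1 per captured transcript) per 10000 and the myeloid genes C1qa, C1qb, C1qc, Tyrobp, Fcer1g and Ctss together stayed under 15 per 10000. This gave 1018 of 9286 cells, of which 32 came from tumour 1, 521 from tumour 2 and 465 from tumour 4. WPRE-positive cells had 3 or more WPRE UMIs, and there were 667 of them. WPRE-zero cells had 0 WPRE UMIs, and there were 127. The 224 cells with 1 or 2 WPRE UMIs, called WPRE-low here, were left out of the comparison and are shown beside it. The cells were thus selected on the measured counts of WPRE and of the myelin and myeloid genes, so their own levels are given as descriptions without a test.

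The tumours were made by MADR, in which recombinases exchange a donor cassette into a recombinase-ready locus, here the Rosa26 mTmG reporter locus that the mice carried on 1 allele. All 3 tumours carried the same changes by their labels, H3f3a K27M, Pdgfra D842V and Trp53 R270H. The changes were introduced by electroporation of the brain at postnatal day 1 to 2. This genotype is given per tumour, and which WPRE-positive or WPRE-zero cells carried the changes was not tested. The mice were 150, 106 and 149 days old when tumours 1, 2 and 4 were taken, and each tumour is 1 library of droplet 3′ single-cell RNA sequencing from cells sorted for GFP. WPRE-zero cells therefore passed the same GFP gate as WPRE-positive cells, and the labels do not say which construct holds WPRE.

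Oligodendrocytes wrap axons in myelin and arise from progenitors that carry the PDGF receptor alpha and the proteoglycan NG2 (Cspg4). Myelin basic protein compacts the sheath, and Mog and Mag are surface proteins of it. The D842V change is known to make the PDGF receptor alpha signal without its ligand, and K27M in histone H3.3 is known to block the methyltransferase that marks lysine 27. Immediate early genes are switched on within minutes of a stimulus, heat shock genes answer misfolded protein, and interferon response genes answer interferons and foreign nucleic acid.

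The label held well in tumour 2 and poorly in the other two tumours. In tumour 2 the myelin sum was 30 or more per 10000 in 322 of 521 cells, and myelin genes outside the rule (25 genes such as Mbp, Cnp and Cldn11) had medians of 105 UMIs per 2500 in WPRE-positive cells and 182 in WPRE-zero cells. In tumour 4 only 41 of 465 cells reached a myelin sum of 30, and the same medians were 15 in WPRE-positive and 14 in WPRE-zero cells. In tumour 1 the median was 2 UMIs in the 24 WPRE-positive cells. Opalin, a sialoglycoprotein of oligodendrocytes, supplied 90.8% of the rule's UMIs in WPRE-positive cells of tumour 1 and 57.0% in those of tumour 4, against 3.12% in those of tumour 2. WPRE-positive cells of tumour 1 thus met the rule mostly through Opalin, with few transcripts of its other genes. In tumour 4 Opalin supplied 31.1% of the rule's UMIs in WPRE-low and 44.9% in WPRE-zero cells. WPRE-positive cells of tumour 4 held 10124 thinned UMIs of the myelin genes outside the rule and 978 of Opalin. Those of tumour 1 held 240 and 69, with 82 of the 240 in 1 cell. The 25 genes together thus outnumbered Opalin in both tumours. Cells of tumours 1 and 4 are called oligodendrocyte-like below only by the rule. Just inside the myelin limit, at 10 to 12 per 10000, lay 16, 39 and 173 cells of tumours 1, 2 and 4, and just outside it, at 8 to 10, lay 22, 53 and 274.

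In tumour 2 the rule's cells divided into 237 WPRE-positive (45.5%, exact 95% interval 41.2 to 49.9), 169 WPRE-low and 115 WPRE-zero cells (22.1%, 18.6 to 25.9). Tumour 4 held 406 WPRE-positive (87.3%, 83.9 to 90.2), 49 WPRE-low and 10 WPRE-zero cells (2.15%, 1.04 to 3.92). Tumour 1 held 24 WPRE-positive, 6 WPRE-low and 2 WPRE-zero cells. Only tumours 2 and 4 had the 10 cells per class that were required for a pair. The median WPRE count of positive cells was 7, 5 and 8 UMIs in tumours 1, 2 and 4, and the highest was 20, 31 and 33. Cells with 3 WPRE UMIs numbered 68 in tumour 2 and those with 2 numbered 78, so the limit cuts a continuous distribution.

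WPRE was also found in the other non-myeloid cells and in the myeloid cells. After every cell had been thinned at random to 2500 UMIs, 46.3% of oligodendrocyte-like cells of tumour 2 still had a WPRE UMI, compared with 67.4% of the other non-myeloid cells and 22.2% of the myeloid cells. In tumour 4 these shares were 83.9%, 83.4% and 53%, and in tumour 1 they were 81.3%, 72.3% and 62.7%. The source of WPRE in myeloid cells was not tested, so their share is no clean background. In tumour 1 Pdgfra UMIs were present in 84 of 109 WPRE-positive and 2 of 12 WPRE-zero myeloid cells, and the median myeloid sum was 70.3 per 10000 against 266. The exact 95% intervals of oligodendrocyte-like and myeloid cells, each over cells of 1 animal, lay apart in tumour 2 (41.9 to 50.6% and 18.6 to 26.2%) and in tumour 4 (80.2 to 87.1% and 41.7 to 64.1%), and overlapped in tumour 1 (63.6 to 92.8% and 54.8 to 70.2%). Median depths before thinning were 10398 UMIs for oligodendrocyte-like and 7249 UMIs for myeloid cells of tumour 2.

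**Figure D1:**
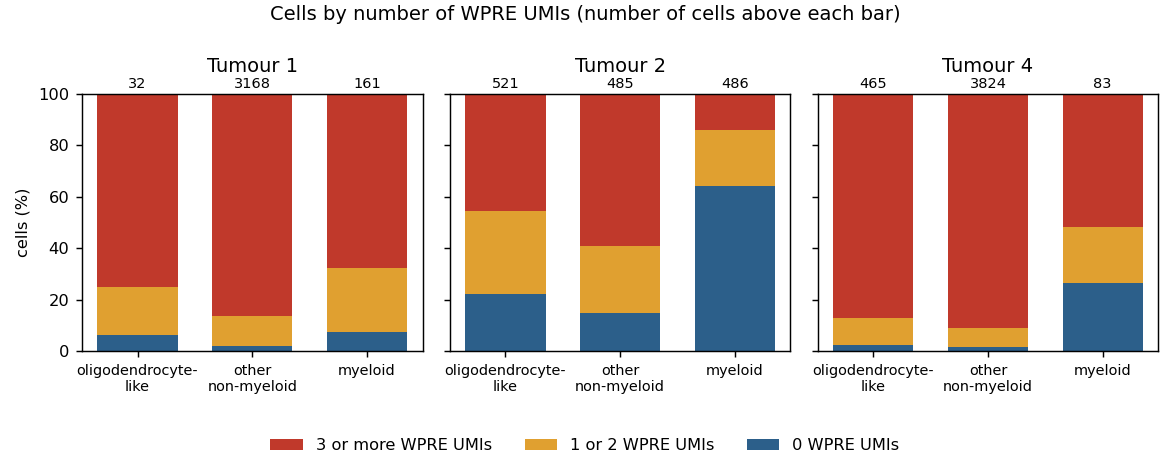
Share of cells (y axis, percent) with 3 or more, 1 or 2, and 0 WPRE UMIs in oligodendrocyte-like, other non-myeloid and myeloid cells of each tumour, with the number of cells above each bar. In tumour 2 the WPRE-positive share of oligodendrocyte-like cells was 45.5% and that of myeloid cells 14%, while in tumour 4 the shares were 87.3% and 51.8%.

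The classes differed in depth before thinning. In tumour 2 the median was 13062 UMIs in WPRE-positive cells, 10891 in WPRE-low and 6081 in WPRE-zero cells, and in tumour 4 it was 8595, 5002 and 5388.5. After thinning to 2500 UMIs the median number of genes was 1271 in WPRE-positive and 1225 in WPRE-zero cells of tumour 2. The mitochondrial share of UMIs was 7.70% in WPRE-positive and 5.28% in WPRE-zero cells of tumour 2, and 5.56% and 5.15% in tumour 4. Of WPRE-positive cells, 5 in tumour 2 and 11 in tumour 4 had doublet scores among the highest of their library, while 0 WPRE-zero cells did in either tumour. A further selection of cells in tumour 2, with 96 WPRE-positive and 96 WPRE-zero cells matched for depth (medians 7291.5 and 7012 UMIs), is quoted below as the depth-matched cells. Their mitochondrial shares were 9.64% and 5.09% and the median myelin sums of the rule 25.8 and 67.4 per 10000, both farther apart than in all cells. In the fit on depth-matched cells of both tumours 2.47% of 2799 genes were called higher and 0.893% lower. The libraries shared 6 to 20 barcodes pairwise.

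Gene by gene, UMIs were summed per tumour and class from the thinned cells and compared with edgeR's quasi-likelihood test with the tumour as a block. Of 7189 genes tested, 9 were higher in WPRE-positive cells at a Benjamini-Hochberg adjusted p under 0.05, which is 0.125% of the genes tested. None was called lower, and the lowest adjusted p among lower genes was 0.114. At an unadjusted p under 0.05 there were 288 higher and 63 lower genes, and DESeq2 called 0 genes, with 69 at an unadjusted p under 0.05. The 9 genes were Hspa1b, Hspa1a and Dnajb1 of the heat shock response, Zfp36 and Atf3 of the immediate early list, Ppp1r15a of the stress response, Gbp2 and Parp14 of the interferon response, and Gm7120, a gene model. The test rests on 2 pairs, and its spread was shared over all genes. The count went between 0 and 234 with the class limits, the filter and the tool, so the per-tumour values below carry the comparison. With another random draw for the thinning, Hspa1b, Zfp36 and Gm7120 were called again. Hspa1a, Dnajb1, Atf3, Parp14 and Gbp2 then had edgeR adjusted p values between 0.0805 and 0.0909, and Ppp1r15a had 0.999. Over all genes tested, 59.1% had positive fitted fold changes, and 59.3% were higher in WPRE-positive cells of tumour 2 and 56.7% in those of tumour 4.

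The inducible HSP70 genes stood higher in WPRE-positive cells of tumour 2. Hspa1b (chr17:34956436-34959238, minus strand, mm10) had 302 CPM (UMIs scaled to a total of 1000000 thinned UMIs in the class) in WPRE-positive cells of tumour 2, 75.7 CPM in WPRE-low and 27.8 CPM in WPRE-zero cells. In tumour 4 it had 23.6 CPM in WPRE-positive cells and no UMI in the 10 WPRE-zero cells, in which 3 UMIs would make 120 CPM. Its fitted log2 fold change was 3.32 ± 0.64 (SE, 2 pairs, edgeR adjusted p = 0.00142). Hspa1a (chr17:34969190-34972156, minus strand) had 738 CPM in WPRE-positive, 312 in WPRE-low and 139 CPM in WPRE-zero cells of tumour 2, and 110 CPM against no UMI in tumour 4 (log2 fold change 2.40 ± 0.58, edgeR adjusted p = 0.036). In tumour 4, 1 WPRE-positive cell held 48.2% of the Hspa1a UMIs. These neighbouring genes encode nearly the same protein, so reads may be divided between them by the counting, and their sum was 1040 CPM in WPRE-positive and 167 CPM in WPRE-zero cells of tumour 2.

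Dnajb1 (chr8:83608193-83612653, plus strand), the HSP40 partner that loads clients onto HSP70, had 906 CPM in WPRE-positive, 244 CPM in WPRE-low and 97.4 CPM in WPRE-zero cells of tumour 2. A UMI of it was seen in 121 of 237 WPRE-positive and 17 of 115 WPRE-zero cells there. In tumour 4 it had 73.9 CPM in WPRE-positive cells, 122 in WPRE-low cells and 40 CPM, a single UMI, in WPRE-zero cells, so tumour 4 alone shows no ordered difference. Its log2 fold change was 2.94 ± 0.62 (edgeR adjusted p = 0.00466). In the depth-matched cells of tumour 2, the values were 925 CPM against 104 CPM for Dnajb1 and 429 CPM against 33.3 CPM for Hspa1b. Tumour 4 gave 10 cells per class when matched alike. There Dnajb1 had 40 CPM in both classes and Hspa1b had no UMI in either, so these cells show no difference.

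Because both HSP70 genes were called, the stretches just upstream of their starts are shown, with the match to the letters of the heat shock element (GAANNTTC or TTCNNGAA, each its own reverse complement) in capitals. Each stretch is 110 bases from RefSeq on GRCm38.p6, read 5′ to 3′ on the gene's strand, and ends at the base before the start.
Hspa1a, chr17:34972157-34972266, minus strand: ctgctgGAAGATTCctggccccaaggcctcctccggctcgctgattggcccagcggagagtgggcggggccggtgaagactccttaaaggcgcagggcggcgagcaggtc
Hspa1b, chr17:34959239-34959348, minus strand: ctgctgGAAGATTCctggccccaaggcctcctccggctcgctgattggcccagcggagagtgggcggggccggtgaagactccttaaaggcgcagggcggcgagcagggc
The heat shock letters begin 104 bases before the start of both HSP70 genes. Dnajb1, the other called heat shock gene, had no match to them in either of its promoter entries. The letters of the interferon-stimulated response element (TTTC, any pair of bases and TTTC again, or the reverse complement) begin 59 bases before the RefSeq start of Gbp2, a called gene described below, where GENCODE already places the gene, and 220 bases before the start of Ppp1r15a, which is not on the interferon list. Atf3 and Zfp36 had no match to either. Over the 250 bases upstream of 32851 RefSeq promoters, 12.8% held the heat shock letters and 2.98% the interferon letters on either strand, so a match is a description of the sequence only. Of the 9 genes, 7 had promoter entries.

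Immediate early genes were higher as a list in WPRE-positive cells, with the large difference in tumour 2. The 20 genes summed to 11127 CPM in WPRE-positive cells of tumour 2, 3962 CPM in WPRE-low and 3224 CPM in WPRE-zero cells, a 3.45-fold difference between the outer classes. In tumour 4 the sums were 5416, 5820 and 4040 CPM, and WPRE-low cells were as high as WPRE-positive cells. All 20 genes were higher in WPRE-positive cells of tumour 2 and 16 were in tumour 4, beside 59.3% and 56.7% of all genes tested. Of the 19 genes that passed the filter of 30 UMIs, 2 were called higher, beside 0.125% of all genes, and 0 lower, and the median log2 fold change was 1.54, against 0.13 over all genes tested. With the classes taken from thinned UMIs, at least 1 against 0, 16 genes of the list were called higher, beside 1.66% of 8060 genes. With at least 10 WPRE UMIs for WPRE-positive cells, 8 were, beside 1.64% of 3900 genes. With DESeq2 and with a lower class of 0 to 2 WPRE UMIs, 0 were called.

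Zfp36 (chr7:28376784-28380253, minus strand), which binds AU-rich mRNAs and speeds their decay, had 405 CPM in WPRE-positive, 80.5 in WPRE-low and 55.7 CPM in WPRE-zero cells of tumour 2. In tumour 4 it had 147 CPM in WPRE-positive and 180 CPM in WPRE-low cells, and no UMI in the WPRE-zero cells (log2 fold change 2.88 ± 0.59, edgeR adjusted p = 0.0046). Atf3 (chr1:191170296-191218039, minus strand), a stress-induced bZIP factor, had 273 CPM in WPRE-positive, 78.1 in WPRE-low and 31.3 CPM in WPRE-zero cells of tumour 2. In tumour 4 it had 199 CPM in WPRE-positive, 139 in WPRE-low and 160 CPM, 4 UMIs, in WPRE-zero cells (2.32 ± 0.58, edgeR adjusted p = 0.0494). There 1 WPRE-zero cell held 75% of the 4 UMIs, and tumour 4 alone shows no ordered difference. Fosb, a partner of Jun in AP-1, did not pass, at 390 CPM in WPRE-positive and 80 CPM in WPRE-zero cells of tumour 2 and 31.5 CPM against no UMI in tumour 4 (2.19 ± 0.58, edgeR adjusted p = 0.0807). Fos itself had 2419 CPM in WPRE-positive and 657 CPM in WPRE-zero cells of tumour 2, and 1288 CPM against 800 CPM in tumour 4, with an edgeR adjusted p of 0.613.

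The spread over cells was wide. In tumour 2 the median WPRE-positive cell had 16 UMIs of the immediate early list per 2500 (quartiles 5 and 39), and the median WPRE-zero cell had 3 (1.5 and 6), so the classes overlapped. Medians in tumour 4 were 11, 10 and 5.5 UMIs in WPRE-positive, WPRE-low and WPRE-zero cells. The mitochondrial share moved with the list in tumour 2. With cells limited to a mitochondrial share of 10%, the sums were 8609 CPM in 157 WPRE-positive and 2715 CPM in 94 WPRE-zero cells of tumour 2, and among cells with a myelin sum of at least 30 they were 7960 CPM in 131 WPRE-positive and 1958 CPM in 76 WPRE-zero cells. In the depth-matched cells they were 14229 CPM and 3121 CPM. In 10 cells per class of tumour 4 matched alike, the sums were 4440 CPM and 4040 CPM.

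**Figure D2:**
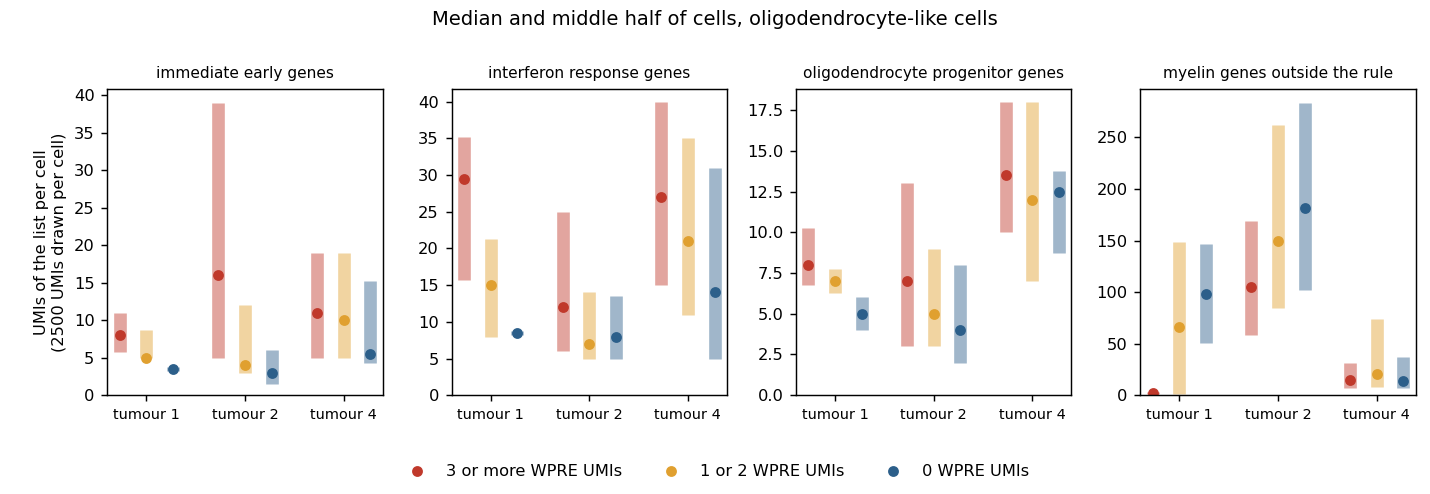
UMIs per cell (y axis, out of 2500 drawn) of 4 gene lists in WPRE-positive, WPRE-low and WPRE-zero oligodendrocyte-like cells of each tumour. Points are medians over cells and bars run between the quartiles. The immediate early median of WPRE-positive cells in tumour 2 was 16, and that of WPRE-zero cells 3. Tumour 1 had 2 WPRE-zero cells.

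Ppp1r15a (chr7:45522916-45526268, minus strand), which encodes GADD34 and ends the block of translation in stressed cells, had 155 CPM in WPRE-positive, 85.2 in WPRE-low and 17.4 CPM in WPRE-zero cells of tumour 2. In tumour 4 it had 52.2 CPM in WPRE-positive cells and 40 CPM, a single UMI, in WPRE-zero cells (2.74 ± 0.68, edgeR adjusted p = 0.0484). This call rests on the draw: the log2 fold change was 0.92 with another thinning draw (edgeR adjusted p = 0.999) and 1.02 without thinning (0.397), and the call was lost in 12 of 16 other settings. In the wider integrated stress response list of 17 genes, 0 of 12 genes tested were called, beside 0.125% of all genes. Fold changes were positive for 7 of the 12, beside 59.1% of all genes, so both counts are near those shares. Its sum was 1512 CPM against 1200 CPM in tumour 2 and 1208 CPM against 1960 CPM in tumour 4, WPRE-positive cells given before WPRE-zero cells.

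Gbp2 (chr3:142620602-142638008, plus strand), a guanylate-binding GTPase induced by interferon, had 238 CPM in WPRE-positive, 87.6 in WPRE-low and 45.2 CPM in WPRE-zero cells of tumour 2. Levels in tumour 4 were 646, 506 and 200 CPM in the same order, so the order was the same in both tumours (log2 fold change 2.22 ± 0.54, edgeR adjusted p = 0.0429). In tumour 1, 24 WPRE-positive cells had 1200 CPM of it and the 2 WPRE-zero cells had no UMI. Parp14 (chr16:35832874-35871544, minus strand), an ADP-ribosyltransferase of the interferon response, had 108 CPM in WPRE-positive and 10.4 CPM, 3 UMIs, in WPRE-zero cells of tumour 2. Its 82.8 CPM in WPRE-positive cells of tumour 4 stood against no UMI in WPRE-zero cells (3.37 ± 0.80, edgeR adjusted p = 0.0339).

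The interferon response list of 25 genes summed to 7322 CPM in WPRE-positive and 4831 CPM in WPRE-zero cells of tumour 2, with 4762 CPM in WPRE-low cells. In tumour 4 the sums were 12064, 7120 and 10286 CPM in WPRE-positive, WPRE-zero and WPRE-low cells. Of 25 genes tested, 24 had positive fold changes, beside 59.1% of all genes. One of them, Gbp2, was called, beside 0.125% of all genes, and the list's median log2 fold change was 0.74 against 0.13 over all genes. Iigp1 and Rsad2, an immunity-related GTPase and the antiviral enzyme viperin, did not pass. Iigp1 had 577 CPM in WPRE-positive and 139 CPM in WPRE-zero cells of tumour 2, and 456 CPM against 120 CPM in tumour 4 (edgeR adjusted p = 0.0649). Rsad2 had 203 CPM against 52.2 CPM in tumour 2 and 89.7 CPM against no UMI in tumour 4 (edgeR adjusted p = 0.114). Ifi27 went the other way in both tumours, with 614 CPM against 807 CPM in tumour 2 and 254 CPM against 280 CPM in tumour 4 (edgeR adjusted p = 1). With the mitochondrial limit at 10% the interferon sums of tumour 2 were 4958 CPM in WPRE-positive and 3991 CPM in WPRE-zero cells.

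The MHC class I list, 12 genes of antigen presentation, had 12 positive fold changes, beside 59.1% of all genes, and 0 calls, beside 0.125%. Tap1, a peptide transporter subunit, had 155 CPM in WPRE-positive and 62.6 CPM in WPRE-zero cells of tumour 2, and 170 CPM against 80 CPM in tumour 4. The light chain B2m had 4895 CPM against 4981 CPM in tumour 2 and 6684 CPM against 7120 CPM in tumour 4. The list's sum was 10389.9 CPM against 9123 CPM in tumour 2 and 12699 CPM against 11520 CPM in tumour 4, a small difference beside those of the lists above.

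**Figure D3:**
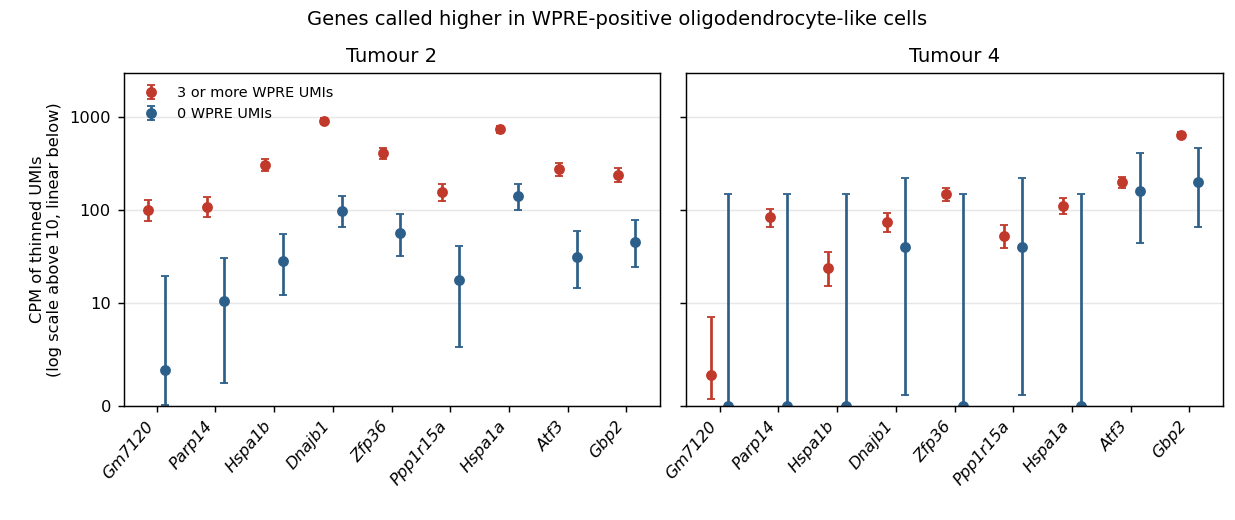
Levels (y axis, CPM of thinned UMIs, log scale above 10 and linear below) of the 9 called genes in WPRE-positive and WPRE-zero oligodendrocyte-like cells of tumours 2 and 4. Bars are exact 95% Poisson intervals of the summed UMIs, which cover counting error only. In tumour 4 the WPRE-zero class is 10 cells, and 5 of the 9 genes had no UMI in it.

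Gm7120 (chr13:119488039-119611059, plus strand) was called with the largest fitted change of the 9, 4.60 ± 0.98 (edgeR adjusted p = 0.00466), at 99.6 CPM in WPRE-positive and 3.48 CPM, 1 UMI, in WPRE-zero cells of tumour 2. One cell held 88.1% of its UMIs in the WPRE-positive class, and 6 of 237 cells had any. In the depth-matched cells it had 8.33 CPM against 4.17 CPM. This call rests on 1 cell.

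Myelin transcripts lay lower in WPRE-positive cells. The 25 myelin genes outside the rule summed to 49340.1 CPM in WPRE-positive, 69690 CPM in WPRE-low and 76463 CPM in WPRE-zero cells of tumour 2, and 20 of the 25 were lower in WPRE-positive cells, beside 40.5% of all genes tested. In tumour 4 the sums were 9974, 22286 and 26880 CPM. There 1 of the 10 WPRE-zero cells held 340 of the class's 672 UMIs, without it the WPRE-zero sum was 14756 CPM, and the medians per cell given above hardly differed, so the size of this difference rests on that cell. No gene of the list was called in either direction, and the median log2 fold change was -0.72, with 22 of 25 tested genes negative, beside 40.9% of all genes. This lack of calls depended on how the classes were set. With the classes taken from thinned UMIs, at least 1 against 0, 24 of the 25 were called lower over the same 2 tumours, beside 1.24% of 8060 genes. With WPRE-positive cells limited to at least 10 WPRE UMIs 5 were called lower, beside 0.205% of 3900 genes, and in depth-matched cells 10, beside 0.893%. Since these genes vary with the 6 that chose the cells, their levels are not independent of the rule.

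Mbp, myelin basic protein, had 11424 CPM in WPRE-positive and 22866 CPM in WPRE-zero cells of tumour 2, and 3342 CPM against 6800 CPM in tumour 4 (log2 fold change -0.85 ± 0.93, edgeR adjusted p = 1). Sept4, a septin of the myelin sheath, had 608 CPM against 1325 CPM in tumour 2 and 139 CPM against 440 CPM in tumour 4 (-1.23 ± 0.52, edgeR adjusted p = 0.761). The WPRE-zero values of both genes in tumour 4 include the cell that held 340 of the class's 672 UMIs of the list. Hapln2 and Gjb1 were among the members that lay higher, 5 in tumour 2 and 7 in tumour 4. Hapln2, a link protein of the node of Ranvier, had 368 CPM in WPRE-positive and 271 CPM in WPRE-zero cells of tumour 2, and the connexin Gjb1 had 601 CPM against 515 CPM. Among cells with a myelin sum of at least 30 in tumour 2, the list summed to 68278 CPM in WPRE-positive and 95611 CPM in WPRE-zero cells. The difference was thus also present above that limit, which does not make the rule's myelin sum equal between the classes. In the depth-matched cells it was 36729 CPM against 77346 CPM. Myelin was not ordered by WPRE class in every measure: the median myelin sum of the rule was 35.5 per 10000 in WPRE-positive, 61.3 in WPRE-low and 52.9 in WPRE-zero cells of tumour 2.

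Other genes low in WPRE-positive cells of both tumours also missed the threshold, and they are given as values. Gnai1, an inhibitory G protein subunit, had 69.2 CPM in WPRE-positive and 146 CPM in WPRE-zero cells of tumour 2, and 61.1 CPM against 200 CPM in tumour 4. Tmem163, a zinc transporter, had 87.8 CPM against 188 CPM in tumour 2 and 28.6 CPM against 80 CPM in tumour 4. Rras2, a Ras-family GTPase, had 50.6 CPM against 129 CPM in tumour 2 and 73.9 CPM against 160 CPM in tumour 4. In WPRE-zero cells of tumour 4, 3 UMIs make 120 CPM, so the values of Gnai1, Tmem163 and Rras2 there rest on few UMIs. Usp39, Glmp, Ift22, Sh3bp5l and Mrpl46 had between 11.8 and 43.9 CPM in WPRE-positive and between 34.8 and 101 CPM in WPRE-zero cells of tumour 2. Their edgeR adjusted p values were 0.749 or more.

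Oligodendrocyte progenitor genes summed higher in WPRE-positive cells. The 25 genes had 3364 CPM in WPRE-positive, 2717 in WPRE-low and 2250 CPM in WPRE-zero cells of tumour 2, and 5685, 5094 and 4520 CPM in tumour 4. Of 24 tested, 23 had positive fold changes, beside 59.1% of all genes, 0 were called, beside 0.125%, and the median was 0.76 against 0.13. Sox11, a factor of immature cells, had 434 CPM in WPRE-positive and 104 CPM in WPRE-zero cells of tumour 2, and 592 CPM against 160 CPM in tumour 4 (2.05 ± 0.53, edgeR adjusted p = 0.0557). Without the cells that had a Pdgfra or Cspg4 UMI, the list summed to 3036 CPM in 173 WPRE-positive and 2253 CPM in 114 WPRE-zero cells of tumour 2. The oligodendrocyte transcription factors had sums of 2137 CPM against 2216 CPM in tumour 2 and 3193 CPM against 3520 CPM in tumour 4, and Sox10 had 282 CPM against 271 CPM and 287 CPM against 280 CPM. Among committed progenitor genes, Gpr17, a receptor of that stage, had 132 CPM against 41.7 CPM in tumour 2. In tumour 4 it had 90.6 CPM against 40 CPM, a single UMI (edgeR adjusted p = 0.558).

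The engineered genes can be read only as totals, since the counts do not tell a transgene transcript from the mouse gene's own. Pdgfra was seen in 49 of 237 WPRE-positive cells of tumour 2 and in 0 of 115 WPRE-zero cells, which allows a share of up to 2.61% of cells with a UMI. In the depth-matched cells it was seen in 22 of 96 against 0 of 96, and these cells differed in myelin and mitochondrial share as given above. Tumour 4 had Pdgfra UMIs in 123 of 406 WPRE-positive and 1 of 10 WPRE-zero cells. In thinned sums it had 38.8 CPM against no UMI in tumour 2 and 41.4 CPM against 40 CPM, 1 UMI, in tumour 4, with an edgeR adjusted p of 0.484. Trp53 had 101 CPM in WPRE-positive and 41.7 CPM in WPRE-zero cells of tumour 2, and 97.5 CPM against 200 CPM in tumour 4. H3f3a had 751 CPM against 661 CPM in tumour 2 and 1268 CPM against 1360 CPM in tumour 4. Neither of these passed, each at an edgeR adjusted p of 1.

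No gene of the growth and tumour programmes was called, and with 0.125% called over all genes this says little about lists of their size. Cycling genes summed to 341 CPM in WPRE-positive and 250 CPM in WPRE-zero cells of tumour 2, and to 759 CPM against 240 CPM, 6 UMIs, in tumour 4. Cells with 5 or more UMIs of that list were 8 of 237 against 2 of 115 in tumour 2, and 44 of 406 against 0 of 10 in tumour 4, where 0 of 10 allows up to 30%. MAPK output genes, which report signalling downstream of receptor tyrosine kinases, summed to 1831 CPM against 1092 CPM in tumour 2 and 2655 CPM against 1880 CPM in tumour 4, with 9 of 12 tested genes positive, beside 59.1% of all genes. The phosphatase Dusp6 of that list had 113 CPM against 38.3 CPM in tumour 2 and 69.0 CPM against no UMI in tumour 4. The p53 targets summed to 1779 CPM against 1242 CPM in tumour 2 and 1793 CPM against 1680 CPM in tumour 4. Oncofetal and imprinted genes summed to 295 CPM against 205 CPM in tumour 2 and 2068 CPM against 1040 CPM in tumour 4. Mesenchymal and matrix genes summed to 2734 CPM against 2574 CPM in tumour 2 and 11650.2 CPM against 12160 CPM in tumour 4, although the intermediate filament gene Vim had 181 CPM against 80 CPM and 1125 CPM against 600 CPM.

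The cyclin-dependent kinase inhibitors, which hold cells out of the cycle, gave no call either, beside 0.125% of all genes. Cdkn2a, which encodes p16 and ARF, had 89.5 CPM in WPRE-positive and 69.6 CPM in WPRE-zero cells of tumour 2, and 199 CPM against 120 CPM in tumour 4. Cdkn1a, which encodes p21, had 236 CPM against 174 CPM in tumour 2 and 260 CPM against 160 CPM in tumour 4. Cdkn1b, which encodes p27, had 35.4 CPM against 45.2 CPM and 37.4 CPM against 160 CPM. Cdkn1c had 324 CPM against 240 CPM in tumour 2 and 71.9 CPM against 80 CPM in tumour 4. Cdkn2b, Cdkn2c and Cdkn2d had between 10.1 and 57.4 CPM in WPRE-positive cells of tumour 2 and between 3.48 and 80 CPM in WPRE-zero cells. Of the 7 genes, 6 passed the filter.

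**Figure D4:**
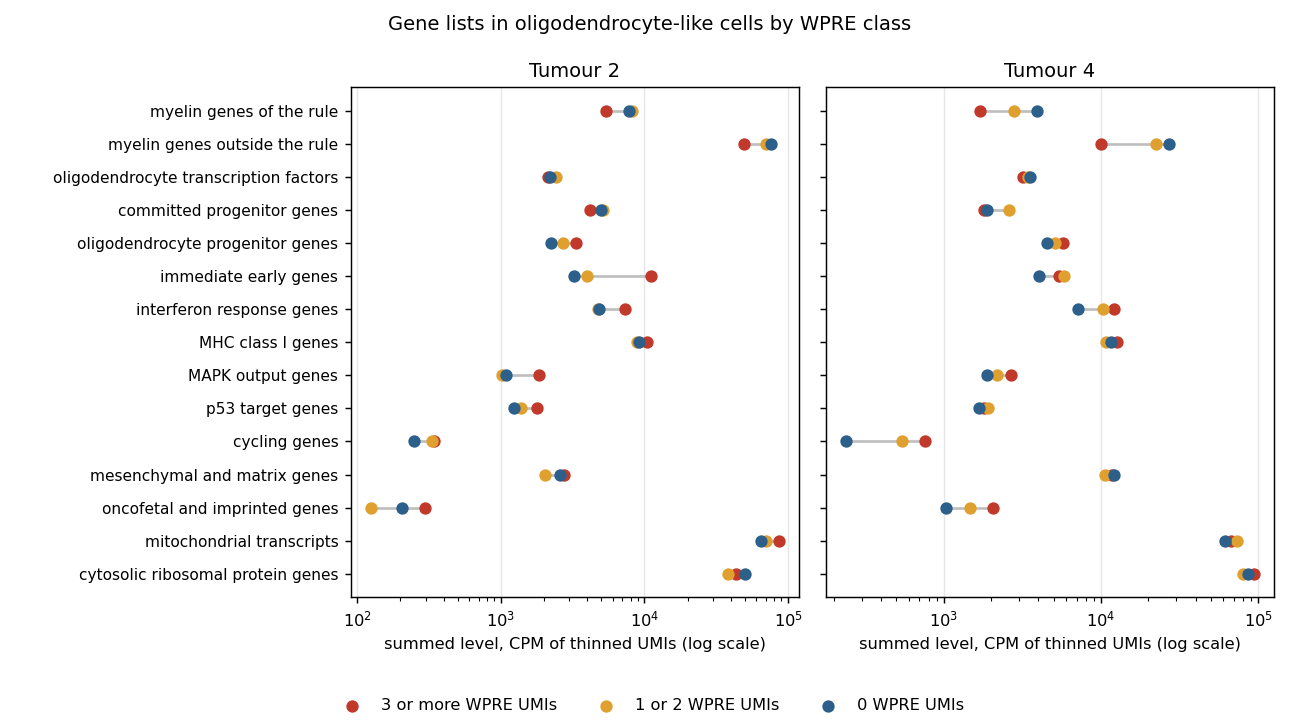
Summed level (x axis, CPM of thinned UMIs, log scale) of 15 gene lists in WPRE-positive, WPRE-low and WPRE-zero oligodendrocyte-like cells of tumours 2 and 4. Immediate early genes of tumour 2 had 11127 CPM in WPRE-positive and 3224 CPM in WPRE-zero cells, and myelin genes outside the rule had 49340.1 CPM against 76463 CPM.

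Housekeeping and metabolic lists had no calls, beside 0.125% of all genes, and several sums differed in direction between the tumours. Mitochondrial transcripts summed to 86071 CPM in WPRE-positive and 65179 CPM in WPRE-zero cells of tumour 2. All 13 were higher, beside 59.3% of all genes tested. In tumour 4 they summed to 67323 CPM against 61480 CPM, with 9 of 13 higher, beside 56.7%. Cytosolic ribosomal protein genes summed to 43154 CPM against 49983 CPM in tumour 2, with 32 of 34 lower, beside 40.5% of all genes tested. In tumour 4 they summed to 93291 CPM against 86400 CPM, with 24 of 34 higher, beside 56.7%. Cholesterol synthesis genes, which feed myelin membrane, had 1777 CPM against 1583 CPM in tumour 2 and 800 CPM against 1920 CPM in tumour 4. Glycolysis and hypoxia genes had 2311 CPM against 2612 CPM and 3964 CPM against 3400 CPM. Reactive oligodendrocyte genes summed to 17121 CPM against 17492 CPM in tumour 2 and 5272 CPM against 3440 CPM in tumour 4. Serpina3n, a serpin of reactive glia, stood above that list's trend with 528 CPM against 212 CPM and 520 CPM against 80 CPM (edgeR adjusted p = 0.229).

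Casein genes, milk proteins that mark a subset of the oligodendrocyte-like cells of tumour 2, were present in both classes. They summed to 734 CPM in WPRE-positive, 218 CPM in WPRE-low and 901 CPM in WPRE-zero cells of tumour 2, and to 5.91 CPM against no UMI in tumour 4. Csn3 had 344 CPM in both classes and Csn2 had 282 CPM against 226 CPM. Csn1s2a had 82.7 CPM in WPRE-positive and 268 CPM in WPRE-zero cells (log2 fold change -1.82 ± 0.51, edgeR adjusted p = 0.114), and Csn1s1 had 25.3 CPM against 62.6 CPM.

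Markers of other cell types were measured beside these results. The neuron list of 11 genes summed to 368 CPM in WPRE-positive and 118 CPM in WPRE-zero cells of tumour 2, the neuroblast list of 8 genes to 105 CPM against 13.9 CPM, and the astrocyte list of 12 genes to 466 CPM against 289 CPM. Neuron sums in tumour 4 were 1024 CPM against 1320 CPM, neuroblast sums 58.1 CPM against 120 CPM, 3 UMIs, and astrocyte sums 449 CPM against 280 CPM. Microglia or macrophage genes, which the rule limits, summed to 923 CPM against 890 CPM in tumour 2 and 210 CPM against 320 CPM in tumour 4. Endothelial, mural, T or NK cell, red blood cell and ependymal lists summed to between 5.06 and 159 CPM in WPRE-positive and between 3.48 and 118 CPM in WPRE-zero cells of tumour 2. None of the tested marker genes was called, beside 0.125% of all genes, and the part of other cell types in the results above was not tested.

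Whether the WPRE contrast differed between oligodendrocyte-like and other non-myeloid cells was tested as an interaction over tumours 2 and 4. Of 11823 genes tested, 6 differed (0.0507%). Hspa1a was 1 of them, with a difference of log2 fold changes of 3.36 ± 0.64 (edgeR adjusted p = 0.00059). In the other cells of tumour 2 it had 276 CPM in WPRE-positive and 478 CPM in WPRE-zero cells, the opposite order to the oligodendrocyte-like cells. Hspa1b had the same sign (3.42 ± 0.82, edgeR adjusted p = 0.0554), with 111 CPM against 77.8 CPM in the other cells. For the rest of the 9 genes the adjusted p was 0.244 or more. The immediate early sum was also higher in WPRE-positive cells among the other cells of tumour 2, at 18983 CPM against 8717 CPM, and in tumour 4 at 6722 CPM against 4770 CPM. The 2 classes of other cells in tumour 2 differed in cell type markers. Endothelial genes summed to 1906 CPM in WPRE-zero and 73.9 CPM in WPRE-positive other cells. Mural genes had 489 CPM against 33.4 CPM and ependymal genes 283 CPM against 15.3 CPM. Microglia, astrocyte, neuron and T or NK cell genes summed higher in WPRE-positive other cells. The part of cell types in these comparisons was not tested.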

How the data were processed

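For each of 3 tumours, 1 animal and 1 library each, the deposited table holds raw UMI counts, whole numbers with no scaling by the authors, for 27999 entries including WPRE. The submitters' processing notes list mm10, STAR 2.5.1 and Cell Ranger 1.3.0, and the steps between are not given in the sources used here. The normalised tables were not used. The files hold 3386, 1632 and 4624 barcodes (47120617, 15231673 and 53551127 UMIs) for tumours 1, 2 and 4. A cell needed 500 genes and no more than 20% of its UMIs from mitochondrial transcripts, which left 3361, 1548 and 4377. The 61 cells over both the myelin and the myeloid limit were in neither class.

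Each cell was thinned at random to 2500 UMIs (seed 1), and UMIs were summed per tumour and WPRE class with at least 10 cells per class, which left tumours 2 and 4. Genes with at least 30 UMIs over the sums were tested with edgeR 4.0.16 (R 4.3.3, quasi-likelihood test, TMM, tumour as a block, Benjamini-Hochberg over all genes tested), leaving WPRE out. The pairing comes from the design, since both classes come from 1 animal. The p-values measure the spread between 2 tumours only. CPM are UMIs scaled to 1000000 thinned UMIs of the class. Intervals and limits of 3 UMIs cover counting error only. In simulated counts of the same size, the fit called 58.4% of genes raised and 66.9% of genes lowered by 3 on the log2 scale, 8.63% and 3.03% at 1.5, and 0 of 20744 unchanged genes. The simulated sums were drawn independently with the same fixed dispersion for all genes. They hold no clumps of UMIs in single cells, so these shares do not give the power or error rate on the real counts. Doublets were scored with Scrublet in scanpy 1.11.5 and kept, and removing the highest scores was an alternative. Gene positions were taken from GENCODE (GRCm38, the same assembly as mm10).

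Named genes were those called, the 10 lower genes with the largest smaller-of-the-pairs difference (at least 50 CPM in a class, pseudocount 10 CPM), the engineered, casein and cyclin-dependent kinase inhibitor genes, and for other lists up to 2 per direction by the same measure. Fos and the promoter stretches were picked after their values were seen. The cells and the gene lists were chosen with earlier results of these data known, so no list is independent evidence. No set test was run.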

Additional observations from a re-analysis of the deposited data

Results flagged for a closer look

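WPRE was found in cells that the comparison does not use. At least 1 WPRE UMI was present in 92.5% of the 161 myeloid cells of tumour 1, 36.0% of the 486 of tumour 2 and 73.5% of the 83 of tumour 4. Its source in these cells was not tested.

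The WPRE contrast differed between oligodendrocyte-like and other non-myeloid cells for 6 genes by the edgeR interaction test. The differences of log2 fold changes were 11.96 for Cldn5, 7.18 for Ttr, 4.28 for Itm2a, 3.72 for Plk2, 3.36 for Hspa1a and 2.91 for Txnip. For 5 of them a high level in the WPRE-zero other cells of tumour 2 accompanied the difference. Ttr, a carrier made by choroid plexus, had 19.5 CPM in WPRE-positive and 7622 CPM in WPRE-zero other cells there. Cldn5, an endothelial junction gene, had 5.57 CPM against 650 CPM, Itm2a 16.7 CPM against 544 CPM, Plk2 152 CPM against 544 CPM and Txnip 100.3 CPM against 333 CPM. In oligodendrocyte-like cells of tumour 2 the same genes had between 11.8 and 110 CPM in WPRE-positive and between 0 and 73.0 CPM in WPRE-zero cells.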

How the results depend on the processing

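The 9 called genes against which settings are compared rest on 2 pairs of sums, and depth in tumour 4 (10 WPRE-zero cells, where 3 UMIs make 120 CPM) limits what that tumour can show. Calls numbered 87 without thinning, 14 with DESeq2 size factors in edgeR, 72 with at least 10 WPRE UMIs, 234 with the WPRE class taken from thinned UMIs, 94 in depth-matched cells, 1 with at least 1 WPRE UMI, and 0 with DESeq2, without the filter on low counts and with no replicate block (the tumour left out of the fit). At an unadjusted p under 0.05 those last 3 gave 69, 414 and 158 genes. Among alternatives chosen after seeing the data, a lower class of 0 to 2 WPRE UMIs gave 0 (636 at an unadjusted p under 0.05), and with 3 cells per class, which lets tumour 1 in as a further pair, 69. Another thinning draw gave 8 calls, of which 3 were among the 9, and leaving out the highest Scrublet scores gave 7, all among the 9. Depth-matched cells shared 7 of the 9 calls, with 69 higher and 25 lower genes, of which 10 were myelin genes outside the rule. With classes from thinned UMIs 134 genes were higher, 9 of them interferon genes, and 100 lower. No called gene changed direction in 148 gene and setting values, and 62 of them were no longer past the threshold. The settings without replicate 1 and with at least 3 cells per class repeat the main fit, so their outcome was fixed in advance. The threshold was missed in 5 of 17 settings for Hspa1b and Zfp36, and in 12 of 16 for Ppp1r15a. For Gm7120 it was missed in 5 of 13, and the gene was not tested in the other settings. The interaction count was 47 without thinning, against 6. Mean log2 ratios of the list sums over 19 settings ran between 0.42 and 2.02 for immediate early genes, -1.62 and -0.49 for myelin genes outside the rule, 0.30 and 0.69 for progenitor genes and 0.31 and 0.96 for interferon genes. These are means over the tumours that gave a pair in a setting, which in some settings was 1 tumour. Tumour 2 alone gave the ends 2.02, -0.49 and 0.31, and tumour 4 alone gave the immediate early 0.42. In tumour 4 alone the immediate early ratio was -0.027 with a lower class of 0 to 2 WPRE UMIs and 0.136 in depth-matched cells. The SD of the 2 tumours, 0.96 for immediate early and 0.56 for myelin genes, is too wide to read stability from. Tumour 1 entered with a lower class of 0 to 2 UMIs and 3 cells, at -3.08 for the myelin genes outside the rule. The mean log2 ratio of these genes was then -1.62, against -1.03 over tumours 2 and 4. That of the progenitor genes was 0.69 with at least 10 WPRE UMIs, against 0.46. That of the interferon genes was 0.68. It became 0.56 with at least 1 and 0.96 with at least 10 WPRE UMIs. Classes from thinned UMIs gave 0.46, depth-matched cells 0.96 and a lower class of 0 to 2 UMIs 0.46. In tumour 2 alone it was 0.60 with the main settings, 0.88 with a myelin sum of at least 30 and 0.31 with a mitochondrial limit of 10%. The causes were not tested. Leaving out replicate 1, which gives no pair, left 9 calls. Thinning to 5000 UMIs, a myelin sum of at least 30, leaving out cells with Pdgfra or Cspg4, a mitochondrial limit of 10%, and leaving out replicate 2 or replicate 4 left 1 pair and gave values with no test.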
